A study of Mus musculus with 14 samples.

Results

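De novo fatty acid synthesis was described here by 10 genes, *Fasn*, *Acaca*, *Acacb*, *Acly*, *Acss2*, *Slc25a1*, *Thrsp*, *Srebf1*, *Scap* and *Olah*. They were chosen by name for their role in the pathway, and all 10 were found among the 20515 genes with a usable symbol. The study fused regulatory sequence of *Wap*, a milk protein gene with a mammary super-enhancer, to the neighboring gene *Tbrg4* by CRISPR/Cas9 deletion in mice. Of its 14 samples, 2 were total RNA-seq samples, and both came from whole mammary glands at lactation day 10. Both mice had the genotype given as WT_wTbrg4, with 1 wild-type allele and 1 Wap-Tbrg4 fusion allele, and they are called replicate 1 and replicate 2. RNA-seq samples of wild-type mice were not analysed here, so no effect of the fusion allele on these genes could be measured. All values below are levels in this genotype or differences between its 2 mice. The zygotes edited by the study came from C57BL/6 mice, and the sources used here give no age and no number of founders for the animals sequenced.

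The lactating gland is among the most active sites of fatty acid synthesis in the body. Citrate leaves the mitochondria through the carrier encoded by *Slc25a1*, ATP citrate lyase (*Acly*) splits it into acetyl-CoA, and *Acss2* makes acetyl-CoA from acetate. The acetyl-CoA carboxylases (*Acaca*, *Acacb*) turn acetyl-CoA into malonyl-CoA, from which fatty acid synthase (*Fasn*) builds a chain on its acyl carrier domain. In most tissues the chain is released as palmitate, whereas in the mammary gland of rodents the thioesterase II encoded by *Olah* releases it early as the medium-chain fatty acids typical of milk. *Thrsp* (Spot 14) is a nuclear and cytosolic protein linked to lipogenesis, *Srebf1* encodes the transcription factor SREBP1 that activates lipogenic genes, and *Scap* encodes the escort protein that carries its precursor to the Golgi for cleavage.

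The promoters of the 3 genes with the highest exon levels are shown because they differed in the motifs they held. Each sequence is the RefSeq promoter on GRCm38.p6, from 250 bases before to 50 bases after an annotated start, written 5′ to 3′ on the strand of the gene. Capitals mark each CCAAT box, the motif of NF-Y, or its reverse complement.
Thrsp, chr7:97417501-97417800, minus strand: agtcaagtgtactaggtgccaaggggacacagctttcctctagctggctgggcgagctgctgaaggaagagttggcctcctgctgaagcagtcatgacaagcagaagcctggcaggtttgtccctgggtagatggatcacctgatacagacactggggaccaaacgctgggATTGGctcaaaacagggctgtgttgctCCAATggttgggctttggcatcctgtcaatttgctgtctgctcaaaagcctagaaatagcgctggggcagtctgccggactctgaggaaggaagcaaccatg
Fasn, chr11:120824498-120824797, minus strand: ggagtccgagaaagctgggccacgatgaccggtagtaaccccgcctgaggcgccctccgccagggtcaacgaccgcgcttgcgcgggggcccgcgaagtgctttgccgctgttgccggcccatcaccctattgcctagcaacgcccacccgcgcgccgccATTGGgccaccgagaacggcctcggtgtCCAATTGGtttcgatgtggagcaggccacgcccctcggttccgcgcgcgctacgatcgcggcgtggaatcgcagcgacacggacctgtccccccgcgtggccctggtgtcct
Olah, chr2:3366520-3366819, minus strand: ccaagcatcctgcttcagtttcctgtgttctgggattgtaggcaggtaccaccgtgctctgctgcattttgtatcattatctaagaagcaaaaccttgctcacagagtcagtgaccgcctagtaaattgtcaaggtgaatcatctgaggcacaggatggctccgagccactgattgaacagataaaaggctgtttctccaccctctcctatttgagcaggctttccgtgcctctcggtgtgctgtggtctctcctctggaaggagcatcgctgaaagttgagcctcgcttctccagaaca
The *Thrsp* window contained 2 CCAAT boxes, whose first bases lay 79 and 52 bases before the start. The *Fasn* window contained 3 matches, beginning 90, 62 and 59 bases before the start, and the last 2 of these overlapped because they are read from opposite strands of 1 run. The *Olah* window contained none.

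The same search on both strands was run over the 13 windows of the 10 genes and over all 32851 windows. The CCAAT box (CCAAT) was found in 8 of the 13 windows, from 7 of the 10 genes, and in 37.4% of all windows. The Sp1 motif (GGGCGG) was found in 7 of the 13 windows, from 5 genes, and in 35.7% of all windows. The SRE, searched only as TCACNCCAC, a strict consensus for SREBP factors, was found in none of the 13 windows and in 1.24% of all windows. The STAT5 motif (TTCNNNGAA) and the CRE (TGACGTCA) were also found in none of the 13 windows, and in 8.30% and 1.79% of all windows. The palindromic E-box (CACGTG) was found in 3 of the 13 windows, 2 of which are overlapping windows of *Scap* and the other of *Slc25a1*, and in 7.15% of all windows. A match is a description of these letters in this window, and a missing match says nothing of binding elsewhere or at sites with other letters. The window of *Acaca* lies at 1 annotated start, and GENCODE M21 places the outermost start of the gene 65766 bp further upstream. For *Olah* and *Acacb* the outermost GENCODE start lay 30641 and 18983 bp upstream of the RefSeq start. Whether the windows of *Acaca*, *Olah* and *Acacb* hold the start used in the gland was not tested.

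*Acaca* needs a second sequence, because a processed pseudogene on another chromosome, *Gm5182*, carries nearly the same letters. The alignment of the *Acaca* mRNA to the pseudogene at chr12:10152144-10160203 (GRCm38) covered 8079 bases, or 89.5% of the mRNA, with an identity of 99.1%. A stretch of 60 bases from coding exon 10 of 54 of *Acaca* and its counterpart in the pseudogene follow, with the differing base in capitals.
Acaca, chr11:84243278-84243337, plus strand: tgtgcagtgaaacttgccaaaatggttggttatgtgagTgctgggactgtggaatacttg
Gm5182, chr12:10152437-10152496, plus strand: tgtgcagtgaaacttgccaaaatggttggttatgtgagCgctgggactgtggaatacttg
The only difference was T39C, counted from the first base of the stretch, with the *Acaca* base first. Over the whole *Acaca* mRNA, aligned or not, 68.8% of windows of 50 bases and 54.0% of windows of 100 bases were identical in the pseudogene. None of the other 9 genes had a copy aligned over at least 50% of its mRNA at an identity of at least 95%, although shorter shared stretches were not sought genome-wide. How reads that map to several places were treated is not given in the sources used here. *Gapdh*, with 43 such copies, was listed at exon levels of 0.1 and 0.3 FPKM, and the exon level of *Acaca* is therefore given as uncertain.

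Values are FPKM, fragments normalized to feature length and library, given separately for the collapsed exons and for the introns of each gene and rounded by the authors to 1 decimal. Over all genes the exon values added up to 852961 FPKM in replicate 1 and to 1788120 FPKM in replicate 2, so the values of the 2 mice are not on a scale with a fixed total. Low values fell on steps of 1 fragment, from which about 12000000 and 11200000 exon fragments and 2620000 and 1290000 intron fragments were estimated. The value of 1 fragment was 1.985-fold larger in replicate 2. The 10 highest genes held 59.3% of the estimated exon fragments in replicate 1 and 78.1% in replicate 2. *Wap* was listed at exon levels of 172934.6 and 234774.0 FPKM and *Tbrg4* at 314.7 and 291.5 FPKM.

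Markers of the secretory epithelium were present, with *Csn2* at 108555.0 and 481937.0 FPKM, *Lalba* at 8453.5 and 8265.4 FPKM, and the summed exon level of all 6 at 117505 and 490591 FPKM. *Csn2* makes up most of this sum and was the only one of the 6 more than 2-fold higher in replicate 2. The keratin genes *Krt18* (145 and 57.6 FPKM) and *Krt8* (31.4 and 14.6 FPKM) were more than 2-fold lower, *Epcam* was at 134 and 112 FPKM and *Elf5* at 185.8 and 204.8 FPKM, and the median log2 ratio of the 6 was −0.145. How far the number or state of epithelial cells moved the levels of the 10 genes was not tested. Adipocytes also synthesize fatty acids, and all 6 adipocyte markers were detected in both mice, with a summed exon level of 1316 and 1145 FPKM. Their defining marker *Adipoq* was at 85.3 and 113.0 FPKM, *Fabp4* at 501.7 and 564.0 FPKM, *Cfd* at 692.0 and 436.5 FPKM, and *Plin1* at 7.8 and 2.6 FPKM. The summed levels of 4 myoepithelial markers (43.4 and 32.5 FPKM, *Acta2* listed at 0), 3 endothelial markers (46.1 and 40.1 FPKM), 3 leukocyte markers (6.2 and 5.1 FPKM) and 3 skeletal muscle markers (20.4 and 7.5 FPKM) were lower. *Acta2* thus adds nothing to the myoepithelial sum, and whether its reads were lost was not tested. The part that adipocytes had in the levels of the 10 genes was not tested. In whole glands, fewer cells of a type and less RNA per cell cannot be told apart.

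All 10 genes were expressed, and their mean exon levels spanned a 100.2-fold range. By mean exon FPKM, 5 of them were among the 100 highest genes and 8 among the 500 highest. The order from the highest was *Thrsp*, *Olah*, *Fasn*, *Acly*, *Slc25a1*, *Acacb*, *Acaca*, *Srebf1*, *Scap* and *Acss2*. On the deposited scale, the ranges of the 2 mice overlapped between *Thrsp* and *Olah* and between *Acacb* and *Acaca*. The order within each of these pairs also turned over between the mice, so these neighbors did not differ beyond their spread. The other neighbors in the order did not overlap as deposited and kept their order within each mouse. Ranges on another scale were not compared. The order also depends on annotated length, by which FPKM divides. Collapsed GENCODE M21 exons are 1.10 times as long as those of RefSeq for *Fasn*, 1.74 times for *Scap* and 3.59 times for *Acss2*. The order with other lengths was not computed, and close neighbors such as *Scap* and *Acss2* may not keep theirs. In introns, which stand for unspliced RNA, the order was *Fasn*, *Thrsp*, *Olah*, *Acly*, *Acaca*, *Acacb*, *Srebf1*, *Slc25a1*, *Acss2* and *Scap*, with a 64.6-fold range. Intron ranges of *Fasn* and *Thrsp*, *Thrsp* and *Olah*, *Acacb* and *Srebf1*, *Srebf1* and *Slc25a1*, and *Acss2* and *Scap* overlapped. Within each mouse, however, *Acacb* was above *Srebf1* (1.81 and 2.35 times) and *Srebf1* above *Slc25a1* (1.74 and 1.54 times). *Fasn* and *Thrsp*, and *Thrsp* and *Olah*, changed order between the mice, and *Acss2* and *Scap* were equal in replicate 1.

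**Figure D1:**
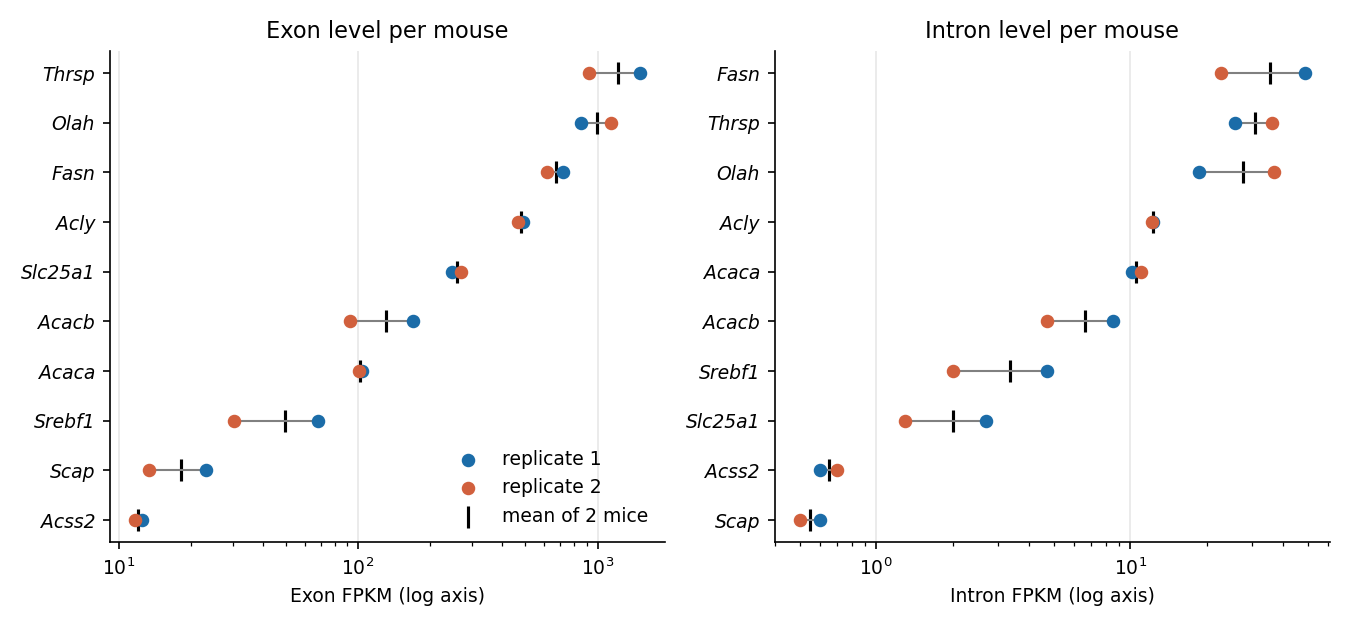
Exon FPKM (left) and intron FPKM (right) of the 10 genes on log axes, with 1 point per mouse and a bar at the mean of the 2 mice. Exon levels run from 12.1 FPKM for *Acss2* to 1212 FPKM for *Thrsp*, and the mice lie farthest apart for *Srebf1*, at 68.3 and 30.4 FPKM.

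Positions of the genes are given on GRCm38 as RefSeq places them, and 4 of the 10 lie on chromosome 11, as do *Wap* and *Tbrg4*. Among the genes that supply acetyl-CoA, *Acly* (chr11:100476352-100528000, minus strand) was listed at exon levels of 488.5 and 466.8 FPKM (478 ± 15.3, SD, n = 2) and stood 45th of all genes. *Slc25a1* (chr16:17925211-17928219, minus strand), which delivers its substrate, was at 247.7 and 269.0 FPKM (258 ± 15.1, SD, n = 2). As deposited, the exon levels of *Acly* and of *Slc25a1* were close between the mice. After the GC correction described below, the log2 ratio of replicate 2 to replicate 1 was 0.12 for *Acly* and 0.80 for *Slc25a1*. Scaled by estimated exon fragments, it was −0.95 for *Acly* and −0.76 for *Slc25a1*. The introns of *Slc25a1* were at 2.7 and 1.3 FPKM. Within each mouse, the exon level of *Acly* was 1.97 and 1.74 times that of *Slc25a1*. *Acss2* (chr2:155518043-155562743, plus strand), the cytosolic route from acetate, was at only 12.5 and 11.7 FPKM (12.1 ± 0.566, SD, n = 2), with an estimated 354 and 167 exon fragments. *Acly* exceeded *Acss2* by 39.1-fold in replicate 1 and 39.9-fold in replicate 2. Per length of collapsed exons, the exon level of the enzyme using citrate was thus far above that of the enzyme using acetate in both mice. An antisense gene, *Acss2os*, overlaps 903 bases of the *Acss2* exons and was listed at 0. The length of *Acss2* depends on the annotation, and collapsed GENCODE M21 exons are 3.59 times as long as those of RefSeq. For *Acly* they are 1.19 times as long. The size of the ratio of *Acly* to *Acss2* therefore depends on the lengths the authors used. If these were long for *Acss2*, the ratio per RefSeq length would be smaller.

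*Acaca* encodes the cytosolic acetyl-CoA carboxylase and *Acacb* the form that sits on mitochondria and is known for controlling the entry of fatty acids. *Acaca* (chr11:84195438-84401651, plus strand) was listed at exon levels of 103.8 and 100.8 FPKM (102 ± 2.12, SD, n = 2). *Acacb* (chr5:114165518-114250758, plus strand) was at 170.4 and 92.3 FPKM (131 ± 55.2, SD, n = 2). The order of the pair therefore turned over between the mice, with *Acacb* at 1.64 times *Acaca* in replicate 1 and 0.916 times in replicate 2. In introns, *Acaca* was at 10.1 and 11 FPKM and *Acacb* at 8.5 and 4.7 FPKM, so *Acaca* was the higher in both mice. The pseudogene copy touches the exon comparison but not the introns, since a processed copy has none. If only the part of the mRNA whose windows differ from the pseudogene had been counted, the exon level of *Acaca* would be 328 FPKM for windows of 50 bases and 222 FPKM for windows of 100 bases, both above *Acacb*. These values assume that every fragment within an identical window was lost, which was not tested. The longest identical stretch between the 2 carboxylase mRNAs is 29 bases.

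*Fasn* (chr11:120805958-120824547, minus strand) was listed at exon levels of 718.9 and 616.3 FPKM (668 ± 72.5, SD, n = 2) and stood 33rd of all genes. Its exon level was 6.93 and 6.11 times that of *Acaca*, and 1.47 and 1.32 times that of *Acly*. With the exon level of *Acaca* taken outside the windows of 50 or 100 bases that its pseudogene shares, the ratio of the mean levels of *Fasn* and *Acaca* would be 2.03 or 3.01. Its introns were at 48.4 FPKM in replicate 1, the highest of the 10 genes there, and at 22.7 FPKM in replicate 2, where *Olah* and *Thrsp* were higher. *Olah* (chr2:3341987-3366569, minus strand), the chain-terminating thioesterase, was at exon levels of 855.7 and 1133.2 FPKM (994 ± 196, SD, n = 2). It exceeded *Fasn*, the enzyme it acts on, by 1.19-fold and 1.84-fold, and had the largest exon ratio of replicate 2 to replicate 1 of the 10 genes. *Fasn* and *Olah* share no identical stretch longer than 11 bases. *Thrsp* (chr7:97412933-97417550, minus strand) was at exon levels of 1498.7 and 925.3 FPKM (1212 ± 405, SD, n = 2) and stood 18th of all genes, and was 2.08 and 1.5 times as high as *Fasn*. The chain-building enzyme, its mammary chain terminator and Spot 14 were thus the 3 highest of the 10 genes in each mouse.

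The regulatory genes were lower. *Srebf1* (chr11:60199084-60222581, minus strand) was listed at exon levels of 68.3 and 30.4 FPKM (49.4 ± 26.8, SD, n = 2). *Scap* (chr9:110333288-110384949, plus strand) was at 23.2 and 13.4 FPKM (18.3 ± 6.93, SD, n = 2). Both were higher in replicate 1, and *Srebf1* exceeded *Scap* by 2.94-fold and 2.27-fold. In introns, *Srebf1* was at 4.7 and 2.0 FPKM and *Scap* at 0.6 and 0.5 FPKM. The last exon of *Srebf1* overlaps *Rai1* on the opposite strand by 114 bases.

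The exon levels of the 10 genes added up to 4187.7 FPKM in replicate 1 and to 3659.2 FPKM in replicate 2. This was 0.491% and 0.205% of the summed exon FPKM of each mouse (0.348% ± 0.202, SD, n = 2). The highest genes dominated these shares, and once the 10 highest genes of the table were left out, the 10 genes held 2.39% and 2.17% of the remainder. Of the estimated exon fragments, which count length as well, they held 1.29% (154926 fragments) and 0.599% (66972 fragments).

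The 2 mice carry the same alleles, and their difference gives the spread on which any level here rests. It was expressed on the log2 scale as exon FPKM + 1 of replicate 2 over that of replicate 1, for the 9845 genes whose exon level averaged 1 FPKM or more. Of the 10 genes, 8 were lower in replicate 2, as were 55.4% of all tested genes, and their median log2 ratio was −0.155 beside −0.076 over all genes. *Srebf1* alone lay more than 2-fold apart, with a log2 ratio of −1.14. Over all tested genes 5.90% were more than 2-fold apart and 4.82% more than 2-fold lower in replicate 2, so 1 of 10 genes cannot be set apart from that background. *Acacb* (−0.88), *Scap* (−0.75) and *Thrsp* (−0.70) followed. *Fasn* (−0.22), *Acss2* (−0.09), *Acly* (−0.07), *Acaca* (−0.04) and *Slc25a1* (0.12) lay near no difference, and *Olah* had a positive value (0.41). Per 1000000 estimated exon fragments, a scale that shifts the ratios of the 10 genes by between −0.776 and −0.886, all 10 were lower in replicate 2, *Olah* included (−0.48). On that scale 96.1% of all tested genes were lower in replicate 2, with a median of −0.714, so this count sets nothing apart. After centring on the median of all genes, 6 of the 10 were lower in replicate 2, and *Acaca* and *Acly* changed sign.

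The counts behind these ratios were large for most genes, from an estimated 167 exon fragments for *Acss2* to 71444 for *Fasn*. Exact 95% intervals on the ratio of replicate 2 to replicate 1 were taken on the deposited scale. They cover counting error alone, and not the scaling between mice, the spread between animals or duplicate fragments. For exons, the interval was 0.410 to 0.484 for *Srebf1*, 0.523 to 0.561 for *Acacb*, 0.598 to 0.637 for *Thrsp* and 1.29 to 1.36 for *Olah*. It held 1 for *Acaca* (0.937 to 1.01) and *Acss2* (0.774 to 1.13). The width of an interval depends on the annotated length behind the fragment estimate. The share of all genes whose interval leaves out 1 was not computed. With 1 genotype and 2 mice, no test of a difference between mice is possible.

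Exons and introns did not always move together between the mice. *Srebf1* had a ratio of 0.445 in exons and 0.426 in introns, and *Acacb* 0.542 and 0.553, so both forms of RNA were lower in replicate 2 to a like extent. *Acly* was near 1 in exons (0.956) and in introns (0.992). *Thrsp* differed in direction, with exons at 0.617 and introns at 1.40 (interval 1.26 to 1.55), from 25.8 FPKM in replicate 1 to 36.0 FPKM in replicate 2. *Fasn* was lower in replicate 2 to a larger extent in introns (0.469, interval 0.437 to 0.503) than in exons (0.857), and *Olah* was higher in introns (1.97, from 18.6 to 36.7 FPKM) than in exons (1.32). The exon and intron intervals did not overlap for *Thrsp*, *Fasn*, *Olah*, *Acaca* and, by a small gap, *Scap*. These intervals cover counting error alone and narrow with depth. They were not computed over all genes, so this sets nothing apart. The intron ratio of *Slc25a1* (0.481, interval 0.210 to 1.05) rested on an estimated 36 and 9 fragments, from levels of 2.7 and 1.3 FPKM. Of 4220 genes whose intron level averaged 0.5 FPKM or more, 5.90% were more than 2-fold apart and 3.53% more than 2-fold lower in replicate 2, on FPKM + 0.1. *Fasn* and *Srebf1* were more than 2-fold lower, 2 of the 10 genes, and *Slc25a1* lay at the threshold with a log2 ratio of −1.0.

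**Figure D2:**
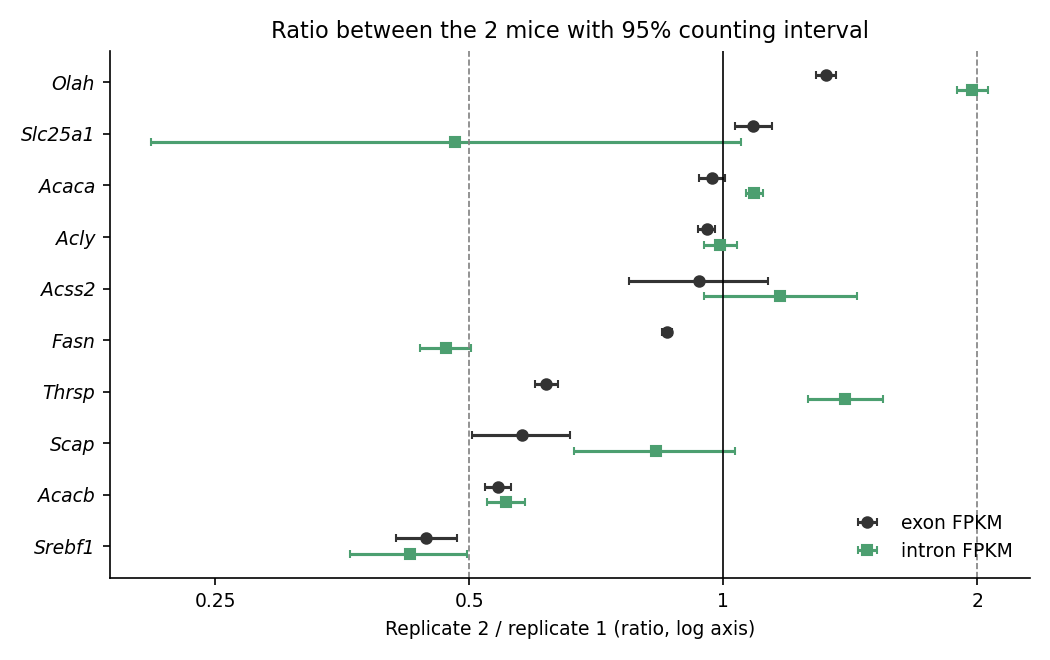
Ratio of replicate 2 to replicate 1 for exon FPKM (black circles) and intron FPKM (green squares) of each gene on a log axis, with exact 95% counting intervals. Dashed lines mark a 2-fold difference. On the deposited scale, *Srebf1* and *Acacb* are low in both, while *Thrsp* is at 0.617 in exons and 1.40 in introns.

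The base composition of exons moved with the difference between the mice. Across the tested genes, the log2 ratio fell as exon GC content rose (Spearman's rho −0.658, across genes of the same 2 libraries, which are not independent). The 10 genes ranged from 45.3% GC for *Olah* to 59.3% for *Scap*, and 8 of them lay above the median of 50.2%. After a lowess correction for exon GC, 5 of the 10 genes were lower in replicate 2, and none lay more than 2-fold apart. *Srebf1* moved from −1.14 to −0.49, *Acacb* from −0.88 to −0.37, *Thrsp* from −0.70 to −0.38 and *Scap* from −0.75 to −0.05. *Fasn* changed sign, from −0.22 to 0.40, as did *Acly* and *Acss2*, and *Slc25a1* went from 0.12 to 0.80, the largest corrected value. *Olah*, with the lowest GC content, kept a positive value of 0.25. The corrected value of *Slc25a1* is thus far from 0, although its deposited levels were nearly equal in the mice. Whether composition, depth or the animals set these differences was not tested.

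**Figure D3:**
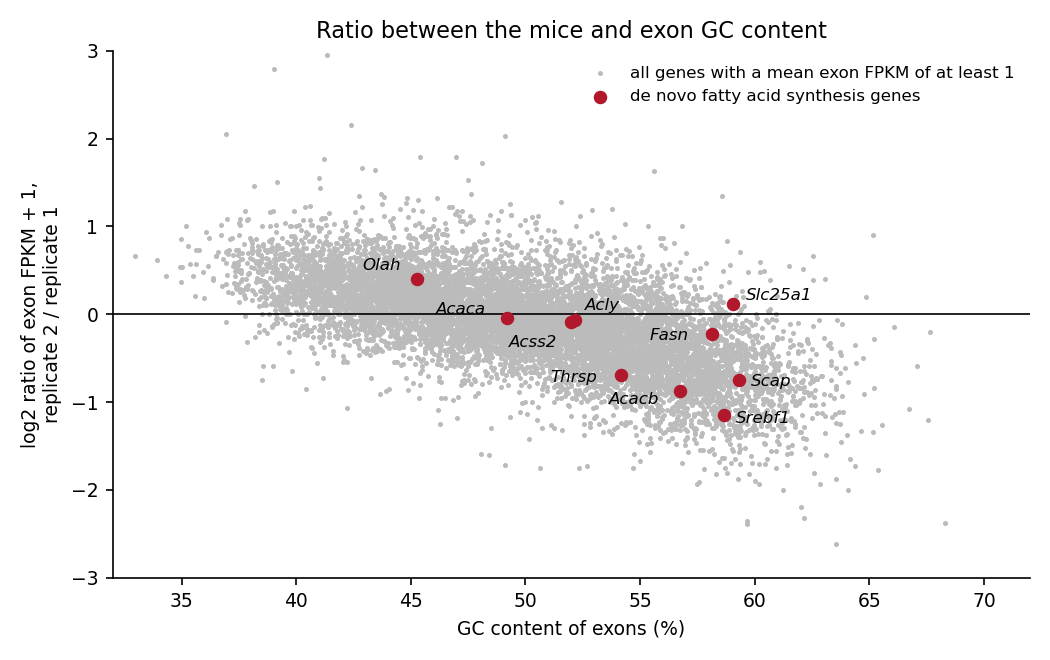
Log2 ratio of exon FPKM + 1 between the mice against the GC content of the exons, with all tested genes in gray and the 10 genes in red. The gray points trend downward from left to right, and *Srebf1*, *Scap*, *Fasn* and *Slc25a1*, at about the same GC content, lie between −1.14 and 0.12.

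The ratio of exon to intron FPKM sets spliced against unspliced RNA within each mouse and is free of the scaling between mice where both were scaled alike. It was not corrected for base composition, and exon and intron GC content differ in some genes, such as *Thrsp* at 54.2% and 45.8%. It was read over 3078 genes whose exon level averaged 10 FPKM or more and whose introns were above 0, and whose median was 28.4-fold. The median of the 10 genes was 25.7-fold, and 5 of them lay above the median of all genes. *Slc25a1* had the highest ratio, at 91.7 and 207 in the mice, in the 94.2nd percentile of all genes, on few intron fragments. *Acly* was at 39.7 and 38.3, *Thrsp* at 58.1 and 25.7, *Olah* at 46.0 and 30.9, and *Scap* at 38.7 and 26.8. Below the median of all genes were *Acacb* at 20 and 19.6, *Acss2* at 20.8 and 16.7, *Fasn* at 14.9 and 27.1, and *Srebf1* at 14.5 and 15.2. *Acaca* had the lowest ratio, at 10.3 and 9.16, in the 8.28th percentile. Its exon level is the one touched by the pseudogene copy, and outside the shared windows of 50 or 100 bases the ratio of the means would be 31.1, above the median of all genes, or 21.1, below it. Its introns span 197182 bp, the longest of the 10 genes. The ratios of *Acly*, *Acacb*, *Acaca* and *Srebf1* were close between the mice, whereas those of *Slc25a1*, *Thrsp* and *Fasn* were not.

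**Figure D4:**
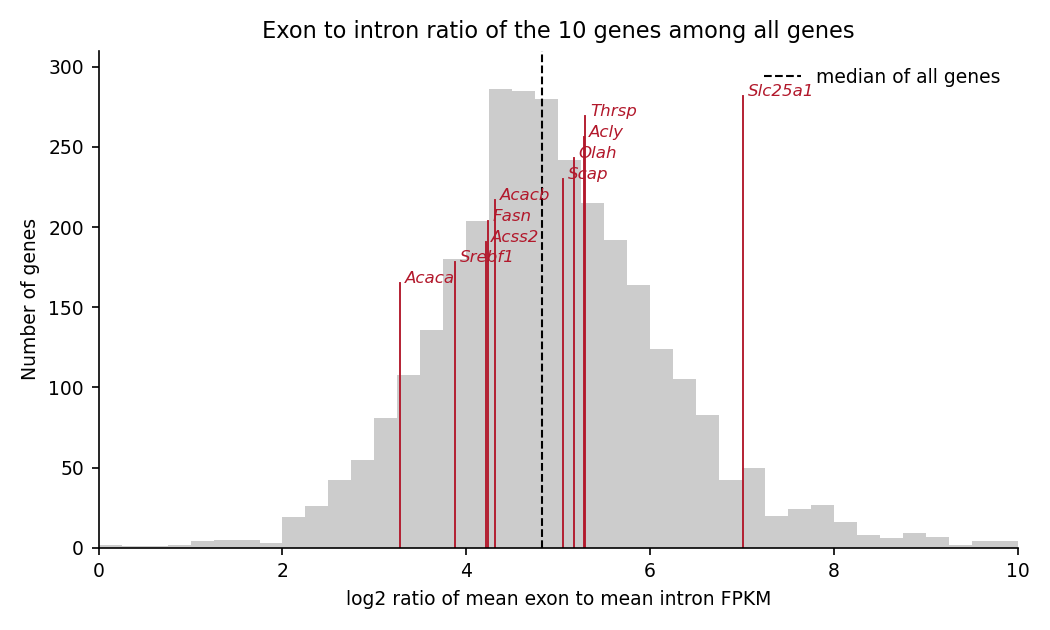
Histogram over 3078 genes of the exon to intron ratio of mean levels, on the log2 scale on the x axis and as a number of genes on the y axis, with each of the 10 genes as a red line and the median of all genes dashed. The heights of the red lines only separate the names; *Acaca* lies lowest and *Slc25a1* highest, and 5 genes lie on each side of the median.

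Other genes of the pathway were read from lists of known members. Of 17 regulators of SREBP1 and lipogenic transcription, all reached a mean exon level of 1 FPKM, and *Nr1h2*, encoding a liver X receptor, was the only gene more than 2-fold apart (8.9 and 3.6 FPKM, lower in replicate 2). *Insig1*, which retains the SCAP complex in the endoplasmic reticulum, was the highest at 171.4 and 186.8 FPKM, above *Srebf1* and *Scap* in both mice. It was followed by *Mlx* (15.8 and 30 FPKM) and the retinoid X receptor gene *Rxra* (22.7 and 13.5 FPKM). The lowest was *Mlxipl*, encoding the glucose-responsive factor ChREBP, at 1.5 and 1.4 FPKM. The median log2 ratio of this list was −0.059.

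Of 10 regulators and modifiers of acetyl-CoA carboxylase and fatty acid synthase, 8 reached a mean of 1 FPKM. *Prkaa2*, a catalytic subunit of AMPK, the kinase that inhibits acetyl-CoA carboxylase, was the highest at 61.8 and 93.9 FPKM, and *Prkag1*, a regulatory subunit, followed at 15.9 and 14.2 FPKM. *Stk11*, encoding the upstream kinase LKB1, was more than 2-fold lower in replicate 2 (20.1 and 8.2 FPKM). *Mid1ip1*, a relative of *Thrsp*, was listed at 0 in both mice. Of 14 genes for the supply of citrate and acetyl-CoA, 13 were tested, and the highest were citrate synthase (*Cs*, 236.7 and 285.4 FPKM), *Pdha1* of the pyruvate dehydrogenase complex (198.7 and 210.7 FPKM) and the pyruvate carrier gene *Mpc2* (160.9 and 197.7 FPKM). The level of *Cs* was close to that of *Slc25a1*. *Mpc1*, the partner of *Mpc2*, was listed at 6.5 and 1.5 FPKM and was the only gene of this list more than 2-fold apart, while its introns were at 7.9 and 5.4 FPKM. Near-identical copies elsewhere in the genome were not sought for genes of the lists. Whether low values such as those of *Mpc1* and *Mid1ip1* stem from reads lost to copies was not tested. The lowest was *Pdk3*, a kinase that inhibits pyruvate dehydrogenase, at 0.4 and 0.6 FPKM.

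Of 4 users or targets of malonyl-CoA outside the pathway, 2 were tested and neither was more than 2-fold apart. These were the malonyl-CoA decarboxylase gene *Mlycd* (8.3 and 5.1 FPKM) and *Cpt1a*, the liver form of the carnitine transferase that malonyl-CoA inhibits (2.8 and 2.4 FPKM). *Cpt1b* (0.7 and 0.2 FPKM) and *Cpt1c* (0.2 and 0.2 FPKM) were low. Mitochondria have a fatty acid synthesis pathway of their own with separate enzymes, and 5 of its 6 listed genes were in the table. The highest were *Mecr* (12.7 and 6.7 FPKM), *Mcat* (5.9 and 4.3 FPKM) and *Cbr4* (4.0 and 3.9 FPKM), and the lowest was *Ndufab1* (2.3 and 3.8 FPKM). None of the 5 was more than 2-fold apart, and the exon level of *Fasn* was above each of them in both mice.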

How the data were processed

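The authors isolated total RNA from mammary glands, prepared libraries with a stranded total RNA kit, mapped reads to mm10 with STAR, counted them on collapsed exons and on introns with HTSeq, and used DESeq2 to generate the deposited FPKM. Treatment of reads with several map positions and the strand setting of the counting are not given in the sources used here. Each table lists 20550 genes, of which 35 lack a usable symbol and were not used.

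The 10 genes, the pathway and marker lists and the comparisons were chosen with earlier results of these data known. Named are all 10 genes, *Wap*, *Tbrg4* and *Gapdh*, and of each pathway list the 3 highest, the lowest and every gene more than 2-fold apart. Marker genes were picked for the text as examples after their values were seen. *Gm5182*, *Acss2os* and *Rai1* were named because they overlap or copy a member. Positions, lengths and GC content came from curated RefSeq transcripts on GRCm38.p6, which matched 98.2% of genes. The authors took gene coordinates from the UCSC known gene set, so the lengths behind their FPKM can differ from the RefSeq lengths. Depth was estimated from 47 low values in replicate 1 and 262 in replicate 2. Of these, 91.5% and 85.9% fell within 0.2 of a whole number of fragments, compared with 40% for evenly spread values. The value of 1 fragment was chosen to fit these same low values best, so this comparison is not a test of it. Fragment numbers depend on annotated length and are approximate. No columns of per-sample values were left out of use. The 2 mice were compared as log2 ratios with a pseudocount of 1 for exons and 0.1 for introns. The GC correction was a lowess fit over 30% of the genes. Copies were sought with minimap2 2.31, keeping places aligned over at least 50% of the mRNA at an identity of at least 95%. Only the 10 genes and *Gapdh* were searched, so low values of marker and pathway list genes were not checked for copies. The depth estimate, GC correction and intervals were tested on simulated data. Alternatives of scaling, pseudocount, filter and mean were run, and each mouse was left out in turn. Protein sequences were not used here. The numbers 1 and 2 name the samples, and nothing in the labels says more of the animals, so the SD of 2 values measures only the spread between these samples. The tools were scipy 1.17.1, statsmodels 0.14.6, pysam 0.24.0, pandas 2.3.3, matplotlib 3.10.9, numpy 2.4.6 and Python 3.11.15.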

Additional observations from a re-analysis of the deposited data

How the results depend on the processing

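No paired analysis was possible because RNA-seq was analysed in 1 group only. The number of the 10 genes more than 2-fold apart in exons was 1 as deposited, and became 0 with the GC correction. Chosen after the data were seen, a common sum of 1000000 in both mice gave 8, beside 42.6% of all tested genes. Values per 1000000 estimated exon fragments gave 5, beside 28.3% of all tested genes. The median log2 ratio over all genes becomes −0.902 and −0.714 on these scales, and 97.8% and 96.1% of all tested genes are then lower in replicate 2. In introns, the number went from 2 to 1 with a pseudocount of 1 and to 3 with none, both added later. The median log2 ratio of the 10 genes became 0.032 with the GC correction and −1.03 per 1000000 fragments, in place of −0.155. Over all genes, 581 were more than 2-fold apart, compared with 231 at a mean of at least 10 FPKM, 1092 with a pseudocount of 0.1, 186 with the GC correction, 2784 per 1000000 fragments and 4193 with the common sum, the last 3 of these chosen later. The mean share of 0.348% became 2.28% without the 10 highest genes and 0.944% of estimated fragments, and ranged from 0.205% to 0.491% with 1 mouse left out. The median log2 exon to intron ratio of 4.69 became 4.56 with a pseudocount of 0.1 on both values and ranged from 4.71 to 4.83 with 1 mouse left out. The causes of these shifts were not tested beyond what each alternative does. Of single levels, 23 of 32 exon values under another scaling or length moved by more than 1 SD of the mice, as did 1 of 10 intron values. With 2 mice, leaving 1 out or taking a geometric mean gives a value within their range by construction. Protein sequences were not compared. GENCODE M21 exons would raise the estimated fragments by up to 3.59-fold, for *Acss2*, without moving the ratios between mice. Levels compared between genes depend on these lengths as well, and their order was not recomputed. More fragments would narrow the counting intervals.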
